A study of Homo sapiens with 2 samples.

Results

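The 10 genes described here are YAP1, WWTR1, TEAD1, CCN1, CCN2, ANKRD1, AMOTL2, AJUBA, AXL and LATS2, which belong to the YAP/TEAD pathway or are reported targets of it. They were listed by name and not by a cut-off on measured values, but earlier results of these data were known. All 10 were among the 19052 genes listed in the 2 tables of the series. In the experiment, TSU-Pr1 bladder carcinoma cells, termed K12 in the labels and described by the series title as stably expressing KLF5, received either a control siRNA (siCtrl) or an siRNA against CINP (siCINP). Total RNA was harvested 48 h later and sequenced, with 1 library in each group. Both groups therefore carried the stable KLF5, and whether the line is a clone is not given in the sources used here.

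YAP1 and its relative TAZ, the product of WWTR1, are transcriptional coactivators that bind no DNA themselves and act through the TEAD factors. The Hippo kinases, with LATS1 and LATS2 as the last step, phosphorylate both coactivators, which keeps them in the cytoplasm or leads to their degradation. CCN1, CCN2 and ANKRD1 are the genes most often used to read out this activity in cultured epithelial and tumour cells, and LATS2 and AMOTL2 are targets that feed back on the pathway.

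The siCtrl library held 10365289 reads and the siCINP library 10314195, where reads are the deposited expected counts rounded to whole numbers. CINP itself had 203 and 53 reads, a 4.02-fold lower level. Since each group is a single library, no difference could be checked against replicates or tested, and no p-value is printed. In bulk RNA, fewer cells with a transcript and less of it per cell cannot be told apart. The 95% intervals are exact for the split of a gene's reads between the libraries and cover counting error only. A gene whose interval held 0 is called level, which does not show that its levels were equal. The epithelial keratin KRT8 had 29363 and 30507 reads, the most of 13 urothelial and epithelial markers, and KRT18 had 27036 and 29477. Several other markers of that list were scarce, with 17 and 11 reads for GATA3, 4 and 15 for EPCAM, 20 and 44 for KRT19, none listed for KRT20 and at most 19 for any of 4 uroplakin genes, which mark differentiated urothelium. KRT7, with 154 and 297 reads, and KRT19 were higher in siCINP, as was EPCAM, which stayed below 20 reads in both libraries. FOXA1 of the same list went the other way, with 44 and 27 reads, and PPARG was level, with 30 and 31. The part of these markers in the results was not tested. Summed FPKM of the prostate, leukocyte, endothelial and fibroblast marker lists did not exceed 3.10 per list and library.

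The promoters of the members are shown first because most of them hold the letters that TEAD factors are known to prefer. RefSeq promoters of build GRCh38.p14, which run from 250 bases before the start of the gene to 50 bases after it, were found for 8 of the 10 genes, with 12 windows in all. There was no entry for TEAD1 and CCN1. The 6-letter motif GGAATG, searched on both strands, was present in 7 of the 12 windows (58.3%), in 4928 of all 35116 promoters (14.0%) and in 1699 of 14950 promoters of the genes compared below (11.4%). The AP-1 motif TGANTCA, a palindrome that does not overlap these matches, was in 1 of the 12 windows, that of ANKRD1, and in 7.71% of all promoters. A match describes the letters in the window and is not evidence of binding. The windows of 3 genes with different responses are printed below 5′ to 3′ on the strand of the gene, in lower case, with each GGAATG, or its complement CATTCC, in capitals. That of CCN2 is chr6:131951323-131951622 on the minus strand, that of ANKRD1 is chr10:90921038-90921337 on the minus strand, and that of AMOTL2 is the second of 2 windows, chr3:134374398-134374697 on the minus strand.
CCN2: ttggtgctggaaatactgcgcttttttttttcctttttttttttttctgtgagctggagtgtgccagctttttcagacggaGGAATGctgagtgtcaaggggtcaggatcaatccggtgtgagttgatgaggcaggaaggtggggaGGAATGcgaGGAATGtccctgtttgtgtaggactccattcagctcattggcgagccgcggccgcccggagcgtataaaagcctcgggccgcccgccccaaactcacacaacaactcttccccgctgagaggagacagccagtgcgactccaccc
ANKRD1: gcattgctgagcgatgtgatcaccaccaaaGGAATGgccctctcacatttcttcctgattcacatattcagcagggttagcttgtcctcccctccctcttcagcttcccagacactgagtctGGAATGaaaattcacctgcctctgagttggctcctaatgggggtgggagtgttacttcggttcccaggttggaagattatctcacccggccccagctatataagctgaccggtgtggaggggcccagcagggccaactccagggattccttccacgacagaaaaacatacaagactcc
AMOTL2: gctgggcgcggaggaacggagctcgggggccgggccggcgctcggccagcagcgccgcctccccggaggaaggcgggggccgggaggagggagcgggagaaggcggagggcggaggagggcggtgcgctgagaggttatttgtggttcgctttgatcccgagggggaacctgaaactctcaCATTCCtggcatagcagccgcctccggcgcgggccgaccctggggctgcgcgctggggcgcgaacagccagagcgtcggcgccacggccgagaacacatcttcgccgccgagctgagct

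CCN2 held 3 matches and ANKRD1 held 2, all on the strand of the gene, while AMOTL2 held 1 on the opposite strand. YAP1, AJUBA, AXL and LATS2, whose windows are not printed, held 1 match each. In the values that follow, CCN2 was slightly lower in siCINP, and ANKRD1 and AMOTL2 were higher. The 3 printed windows were chosen for these different responses, so no relation of matches to ratios can be read from them, and none was tested.

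Of the coactivators, YAP1 was level between the libraries and WWTR1 was lower in siCINP. YAP1 (gene 10413) had 2822 reads in the siCtrl library and 2904 in that of siCINP, or 50.3 and 52.0 FPKM, a unit scaled for gene length and library size. Its log2 ratio of siCINP over siCtrl was -0.03, and the interval (-0.10 to 0.05) held 0, so no difference beyond counting error was seen. WWTR1 (gene 25937) had 2141 and 1635 reads, or 40.4 and 31.0 FPKM. It was 1.37-fold lower (log2 ratio -0.46, interval -0.55 to -0.36). The ratio of YAP1 to WWTR1 in FPKM was 1.25 in siCtrl and 1.67 in siCINP, and WWTR1 made up 44.5% and 37.4% of their summed FPKM. The difference between their log2 ratios, which no scaling of the libraries can alter, was 0.43 (0.31 to 0.55). The pairs of genes compared in this way are mostly relatives and were chosen after their values were seen.

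TEAD1, the DNA-binding partner listed among the 10 genes, did not differ detectably, but its relative TEAD4 did. TEAD1 (gene 7003) had 4561 and 4688 reads, or 46.1 and 47.6 FPKM, with a log2 ratio of -0.03 (-0.09 to 0.03). TEAD4 had 429 and 644 reads, with fractional expected counts, and a log2 ratio of 0.52 (0.34 to 0.70). TEAD2 and TEAD3 lay at -0.04 and 0.08, with intervals that held 0. TEAD1 supplied 54.9% of the FPKM summed over the 4 factors in siCtrl and 48.8% in siCINP, while TEAD4 supplied 28.3% and 35.8%. The log2 ratio of TEAD4 exceeded that of TEAD1 by 0.55 (0.36 to 0.73). VGLL4, a cofactor known to compete with YAP1 for TEAD factors, had 299 and 372 reads and a log2 ratio of 0.25 (0.02 to 0.47). VGLL3 had 26 and 32 reads, and its interval held 0. Neither table lists VGLL1 or VGLL2.

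**Figure D1:**
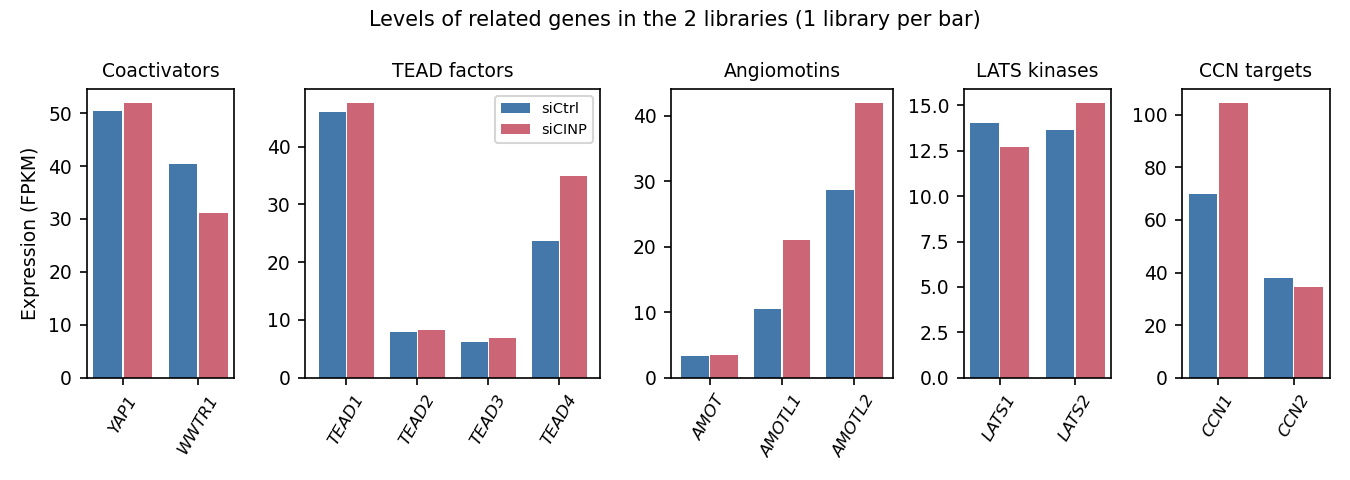
Deposited FPKM of related genes in the siCtrl library (blue) and the siCINP library (red), with 1 library per bar and no error bars. WWTR1 is lower in siCINP beside a level YAP1, TEAD4 is higher beside a level TEAD1, and AMOTL1 and AMOTL2 are higher while AMOT is not. The vertical axes differ between panels.

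Among the members that restrain the pathway, AMOTL2 was higher in siCINP and LATS2 was level. AMOTL2 (gene 51421), an angiomotin that tethers YAP1 and TAZ at cell junctions and is also a target of them, had 1499 and 2190 reads, or 28.6 and 42.0 FPKM. It was 1.39-fold higher (log2 ratio 0.48, 0.38 to 0.57). Its relative AMOTL1 differed more, with 987 and 1980 reads and a log2 ratio of 0.94 (0.83 to 1.05), whereas AMOT, with 232 and 238 reads, was at -0.03 (-0.30 to 0.24). The summed FPKM of the 3 angiomotins was 42.4 in siCtrl and 66.5 in siCINP. The log2 ratio of AMOTL1 exceeded that of AMOTL2 by 0.46 (0.31 to 0.60), and that of AMOTL2 exceeded that of AMOT by 0.51 (0.23 to 0.79).

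LATS2 (gene 26524), one of the paired kinases that phosphorylate YAP1 and TAZ, had 795 and 877 reads, or 13.7 and 15.2 FPKM. Its log2 ratio was 0.07 (-0.07 to 0.21), and the interval held 0 under TMM scaling but lay above it, from 0.01 to 0.29, when libraries were scaled to total counts. LATS1 had 1096 and 947 reads and was lower, at -0.28 (-0.41 to -0.15), with fractional counts. LATS2 made up 49.4% of the FPKM of the pair in siCtrl and 54.3% in siCINP, and the difference between their log2 ratios was 0.35 (0.17 to 0.54). AJUBA (gene 84962), a LIM-domain scaffold that binds LATS kinases and limits their activity, had 1030 and 1209 reads, or 24.3 and 28.7 FPKM. Its log2 ratio of 0.16 (0.04 to 0.28) was the smallest among the members whose interval lay above 0. Of its relatives, LIMD1 was at -0.05 and WTIP at 0.13, both with intervals that held 0.

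The target genes differed in direction. CCN1 (gene 3491, formerly CYR61), a secreted matricellular protein, had 1659 and 2476 reads, or 69.7 and 104.6 FPKM. It was 1.42-fold higher (log2 ratio 0.51, 0.42 to 0.60). CCN2 (gene 1490, formerly CTGF), the closely related connective tissue growth factor, had 932 and 843 reads, or 38.1 and 34.6 FPKM. It was 1.16-fold lower (log2 ratio -0.21, -0.35 to -0.08). With scaling to total counts its log2 ratio was -0.14, and the interval of -0.274 to -0.002 barely excluded 0. CCN1 thus stood 1.83 times above CCN2 in FPKM in siCtrl and 3.02 times in siCINP, and their log2 ratios differed by 0.72 (0.56 to 0.88). Both genes had whole expected counts in both libraries. CCN3 and CCN5 had at most 4 reads per library.

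ANKRD1 (gene 27063), a nuclear ankyrin-repeat protein best known from cardiac muscle, was the scarcest member and had the ratio farthest from 0. Its reads numbered 40 and 89, or 1.94 and 4.34 FPKM. This was a 2.12-fold higher level, with a log2 ratio of 1.09 and a wide interval of 0.53 to 1.66. Of all compared genes, 2.57% had a log2 ratio at least as far from 0. Its log2 ratio exceeded that of CCN2 by 1.30 (0.74 to 1.85) and that of CCN1 by 0.58 (0.03 to 1.12). Its relatives were scarcer, with 20 and 29 reads for ANKRD23 and 3 and 2 for ANKRD2.

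AXL (gene 558), a receptor tyrosine kinase that binds the ligand GAS6, was the most abundant member per length. It had 5972 and 5563 reads, or 121 and 113 FPKM. The log2 ratio was -0.17 (-0.22 to -0.12), and with scaling to total counts it was -0.10 (-0.15 to -0.04). Its relatives MERTK and TYRO3 were at -0.03 and 0.12, with intervals that held 0, and the difference between the log2 ratios of AXL and MERTK, -0.14, had an interval that held 0 (-0.35 to 0.06). The ligand GAS6 was also level, with 158 and 168 reads.

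**Figure D2:**
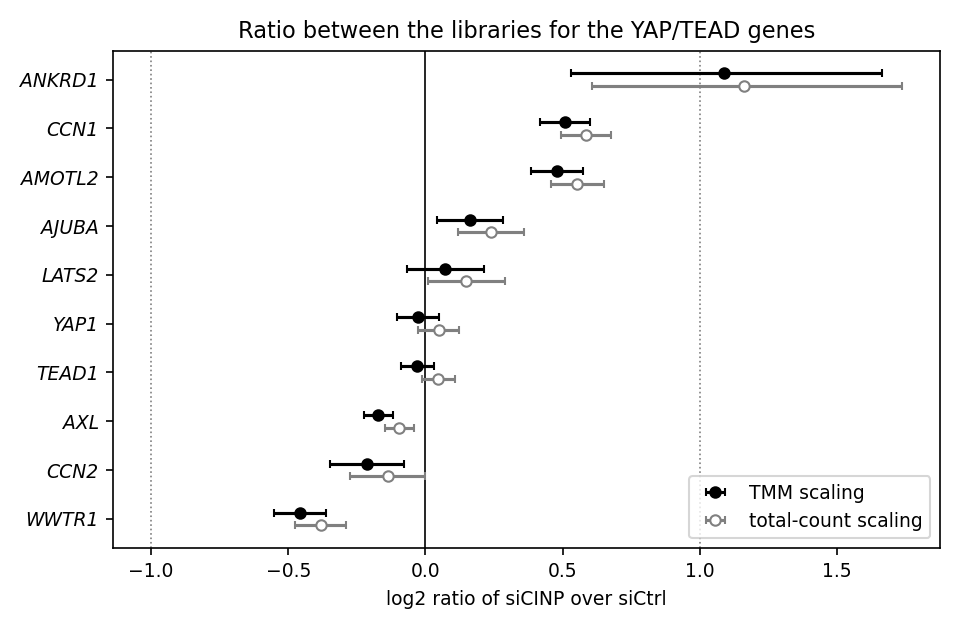
The log2 ratio of siCINP over siCtrl (horizontal axis) for the 10 genes, with TMM scaling (filled points) and total-count scaling (open points); bars are 95% counting intervals and dotted lines mark 2-fold. ANKRD1, CCN1, AMOTL2 and AJUBA lie above 0 and WWTR1, CCN2 and AXL below it under both scalings. The ratios of YAP1 and TEAD1 change sign, with intervals that hold 0 under both. The interval of LATS2 holds 0 with TMM scaling and lies above it with total-count scaling.

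Genes were compared when they had 20 or more reads in at least 1 library, and 13076 genes, with all 10 members, did so. ANKRD1 was the only member at least 2-fold higher with an interval that excluded 0, as were 1.69% of compared genes, and no member was at least 2-fold lower, as were 1.41%. With a 1.5-fold limit the counts were again 1 and 0, where 5.06% of compared genes were higher and 4.88% lower. Intervals lay above 0 in 4 of the 10 members, against 18.6% of compared genes, and below 0 in 3, against 23.1%. With total-count scaling the balance of the background turned, to 26.6% above and 16.7% below, beside 5 and 3 members. An interval excludes 0 more readily in a gene with many reads. Members had 40 to 5972 reads per library, while compared genes needed only 20 in 1 library. These shares, and those of the gene lists below, were not matched for reads. The median log2 ratio was 0.02 over the members and -0.01 over all compared genes. The members spread to both sides, with quartiles of -0.14 and 0.40 beside -0.21 and 0.20 over all compared genes. By rank from the highest ratio, ANKRD1 stood at 184, CCN1 at 1047 and AMOTL2 at 1191 of 13076, while WWTR1 stood at 11867. Scaling to total counts raised every log2 ratio by 0.08, and the log2 ratios of YAP1 and TEAD1 were then both 0.05, with intervals that held 0 under all of the scalings tried.

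The order of the members by FPKM, which corrects for length, was kept at both ends. AXL, CCN1, YAP1 and TEAD1 held the first 4 places in both libraries, and AJUBA, LATS2 and ANKRD1 the last 3. Between them WWTR1, CCN2 and AMOTL2 stood in that order in siCtrl, and AMOTL2, CCN2 and WWTR1 in siCINP. Counting intervals of neighbouring levels overlapped for WWTR1 and CCN2 in siCtrl, and for CCN2 with WWTR1 and WWTR1 with AJUBA in siCINP, so those pairs are not ordered beyond counting error. AXL and CCN1 were 121 and 69.7 FPKM in siCtrl but 113 and 104.6 in siCINP.

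**Figure D3:**
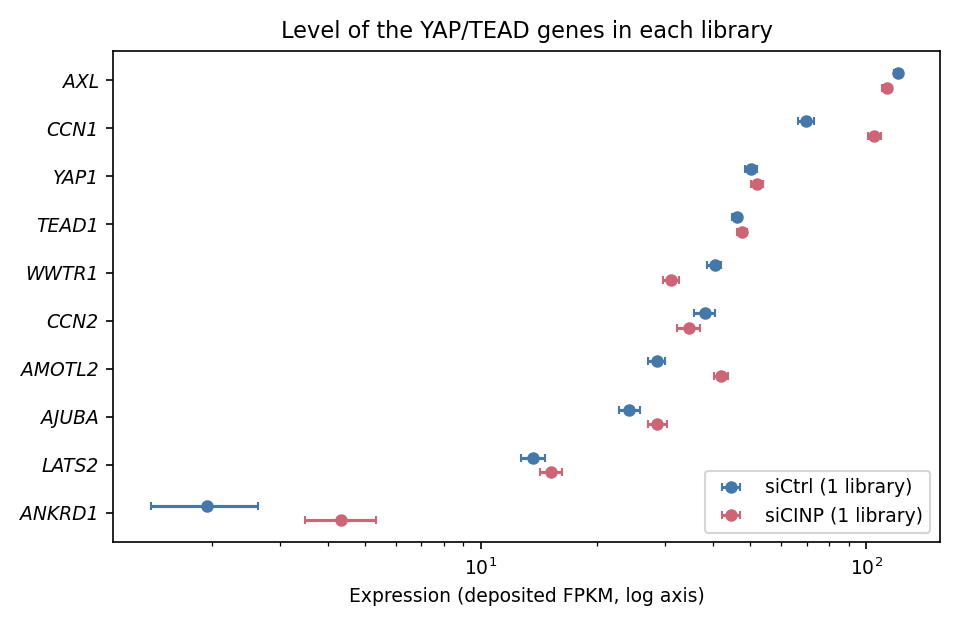
Deposited FPKM on a log axis for each member in the siCtrl library (blue) and the siCINP library (red), with 95% Poisson intervals from its reads. ANKRD1, at 1.94 and 4.34, lies far below the other 9 genes, which range from 13.7 to 121, and AMOTL2 and WWTR1 trade places.

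Expected counts were whole in both libraries for 7 of the members. WWTR1, AJUBA and AXL had fractional counts, so reads may be shared with other genes or repeats. WWTR1 was the only member that a listed gene overlaps in the reference annotation, and that gene, WWTR1-AS1, had 16 reads in each library. The sources used here do not say whether strand was used in counting, so reads of the overlap may be shared. The listed length of a member, which follows the mix of its transcripts, differed by at most 0.423% between the libraries.

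A published list of 22 YAP and TAZ targets, 6 of them members, was divided too. Of 19 compared genes, 7 had intervals above 0 (36.8%, against 18.6% of all compared genes) and 6 below (31.6%, against 23.1%). Their median log2 ratio was 0.04. Beyond 1.5-fold, 4 were higher and 1 lower, beside 5.06% and 4.88% of all compared genes. IGFBP3, a binding protein for insulin-like growth factors, had 48 and 110 reads, or 1.76 and 4.06 FPKM, and with ANKRD1 it was 1 of 2 genes at least 2-fold higher. NUAK2, a kinase of the AMPK family, had 267 and 485 reads and a log2 ratio of 0.79 (0.57 to 1.01), with fractional counts. PTPN14, a phosphatase that binds YAP1 and restrains it, went the other way. It had 3920 and 2158 reads, or 27.8 and 15.4 FPKM, and a log2 ratio of -0.93 (-1.01 to -0.85), also with fractional counts. Without the members, 4 of the remaining genes had intervals above 0 and 4 below, with a median of -0.02, beside the same shares of all compared genes.

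Another 21 compared genes were reported elsewhere as targets and listed from general knowledge. Of their intervals, 7 lay above 0 (33.3%, against 18.6% of all compared genes) and 8 below (38.1%, against 23.1%), with a median of -0.01. EDN1, which encodes the vasoconstrictor endothelin-1, had 41 and 132 reads, a 3.07-fold higher level (log2 ratio 1.62, 1.10 to 2.16). In the opposite direction, CCND1, which encodes cyclin D1 and has many regulators besides YAP1, was 2.45-fold lower. FSTL1, a secreted glycoprotein, had 1222 and 709 reads and a log2 ratio of -0.85 (-0.99 to -0.72).

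The upstream kinases and adaptors were mostly level or lower under TMM scaling. Of 20 genes, 9 had intervals below 0 (45.0%, against 23.1% of compared genes) and 1 above, with a median of -0.06 and none beyond 2-fold. Both numbers depended on scaling, and with total counts 6 intervals lay below 0 and 6 above, beside 16.7% and 26.6% of compared genes. MAP4K4, a kinase that can activate LATS kinases in parallel to MST1 and MST2, was the exception, with 2871 and 4843 reads and a log2 ratio of 0.69 (0.62 to 0.75). STK38, a kinase of the same family as the LATS kinases, had 559 and 345 reads and a log2 ratio of -0.76 (-0.96 to -0.57). Its near relative STK38L was at 0.18 (-0.05 to 0.41). MOB1A, the coactivator of LATS kinases, had 3204 and 2426 reads and a log2 ratio of -0.47, while MOB1B was at -0.04, and both had fractional counts. TAOK1, a kinase upstream of MST1 and MST2, had 3941 and 3060 reads and a log2 ratio of -0.43 (-0.50 to -0.37).

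Junction and scaffold regulators were divided, with 8 of 26 intervals above 0 and 9 below and a median of -0.02. These were 30.8% and 34.6%, against 18.6% and 23.1% of all compared genes. The genes farthest from 0 after PTPN14 and AMOTL1 were WWC2 and AMOTL2. WWC2, a relative of the scaffold KIBRA, had 1089 and 709 reads and a log2 ratio of -0.69 (-0.83 to -0.55). WWC1, which encodes KIBRA, was higher, with 469 and 679 reads and a log2 ratio of 0.47 (0.29 to 0.64), with fractional counts. The log2 ratios of these relatives differed by 1.15 (0.94 to 1.37).

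**Figure D4:**
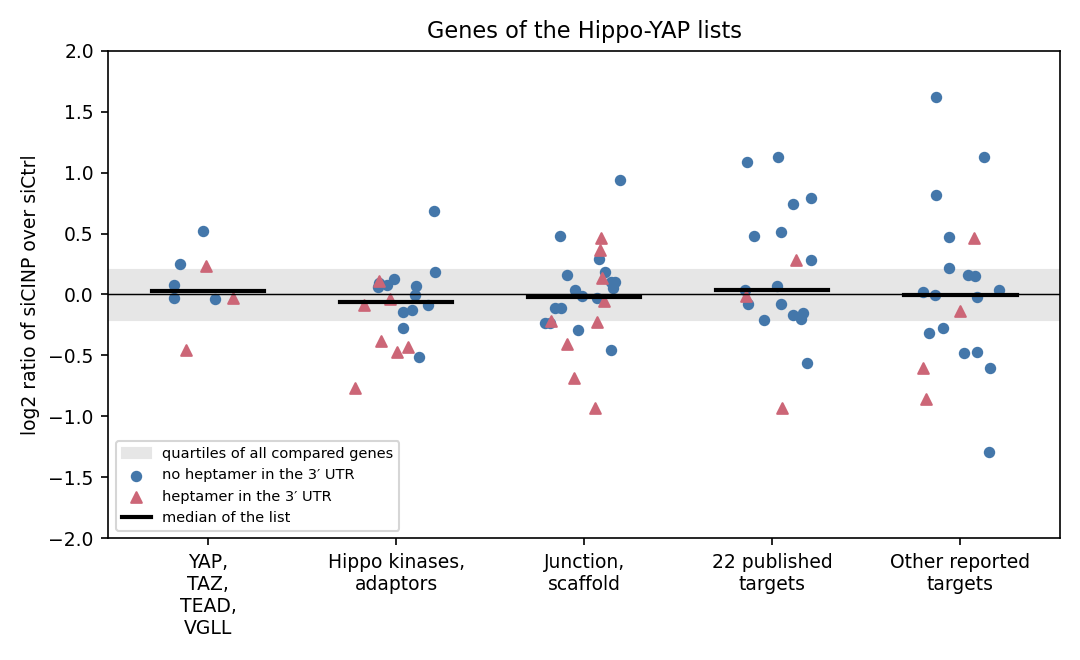
The log2 ratio of siCINP over siCtrl (vertical axis) for each compared gene of 5 gene lists, with the list median as a bar and the quartiles of all compared genes as a grey band. Red triangles are genes with the heptamer TGCAAGA or GCAAGAA in the 3′ UTR; their intervals lie below 0 in 5 of 7 among the Hippo kinases and adaptors, 4 of 9 among junction and scaffold regulators and 1 of 3 among the 22 targets, against 37.8% of all carriers, and the list medians all lie within the grey band.

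The 3′ UTR heptamers TGCAAGA and GCAAGAA are shown because they were picked out in earlier work on these same libraries, so their counts are a description and no independent evidence. Among 11666 compared genes with an annotated 3′ UTR in GENCODE 29, 2147 carried one (18.4%), with a median log2 ratio of -0.11, and the other 9519 had a median of 0.00. Intervals lay below 0 in 812 of the carriers (37.8%) and above 0 in 306 (14.3%), against 21.7% and 20.4% of the others. Total-count scaling adds 0.08 to both medians and leaves their difference as it is. In the pathway and target lists together, counting each gene once, 24 of 89 genes were carriers (27.0%), with medians of -0.17 for carriers and 0.04 for the rest. Among Hippo kinases and adaptors 7 of 20 were carriers, with 5 intervals below 0 and 0 above, and their median was -0.38 beside 0.06 for the others. Among junction and scaffold regulators 9 of 26 were carriers, with 4 intervals below 0 and 2 above, and among the 22 targets 3 of 19 were, with 1 below and 0 above. A longer 3′ UTR offers more places for a match, and carriers and others were not matched for its length. The part of the heptamers, or of this length, in the differences was not tested. Of the members, WWTR1 and TEAD1 were carriers. The sites of 7 genes are printed below as 30 bases of the 3′ UTR, 5′ to 3′, with the match in capitals. WWTR1, STK38, TAOK1 and PTPN14 were lower in siCINP, TEAD1 and MOB1B were level, and WWC1 was higher.
WWTR1: acaagcaggagaTGCAAGAgatgccccaaa
STK38: cctgtgtgtttTGCAAGAAtgtgtggtaag
TAOK1: tcctcagttaagGCAAGAAtgcatgtgttt
PTPN14: caggctttggtcTGCAAGAtcagaattaat
TEAD1: ctcctagagcctTGCAAGAggcaggtgaca
MOB1B: atattgtgtgcTGCAAGAAagtgcttgttg
WWC1: aaggaaagcagaTGCAAGAgatggagacag

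In STK38 and MOB1B the 2 heptamers overlap in 1 run of 8 letters, and these genes had log2 ratios of -0.76 and -0.04. PTPN14 holds 3 separate matches and TAOK1 holds 2, of which the first is printed. The members CCN1, AMOTL2 and ANKRD1, all higher in siCINP, carried neither heptamer, and nor did CCN2 and AXL, which were lower.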

How the data were processed

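Total RNA of the siCtrl and siCINP cells was sequenced, with 1 library per group, and the authors deposited 1 table per library. Expected counts, estimated reads per gene without normalisation, were deposited as decimals. FPKM, also deposited, is scaled for gene length and library size, per the file headers. The tables also give a gene length. The submitters' processing notes name HISAT, Bowtie2 and hg19, whereas counting tool, annotation and use of strand are not given there. Of 19052 gene identifiers, 18971 matched a symbol in RefSeq tables of GRCh38.p14, used for names only.

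Expected counts were rounded and scaled by TMM (edgeR 4.0.16, R 4.3.3, factors 0.974 and 1.03). Each gene has a log2 ratio (siCINP over siCtrl) and a 95% Clopper-Pearson interval (scipy 1.17.1) for how its reads divide between libraries; differences between 2 genes have Wald intervals. A count of 0 stood at 3 reads. The size rule asked for at least 2-fold, higher or lower, with an interval off 0, and is not a test. The intervals leave out scaling error. The code was tested on simulated data. The planned search for LATS motifs in proteins was not run.

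The members, gene lists, heptamers and pairs were chosen with earlier results of these data known. Beyond the members and their relatives, the genes named are those past the size rule and up to 4 per list with the interval farthest from 0; GAS6, SRF and the epithelial markers were named after their values were seen. One gene that this rule names is not reported here. The 3′ UTR of a gene was the longest annotated in GENCODE 29. Alternatives tried were scaling to total counts, upper quartiles and DESeq2 1.42.0 size factors, FPKM ratios with pseudocounts of 0.1 and 1, thinning of the deeper library, the minimum of reads, the size rule, whole counts only, and lists without heptamer carriers or members.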

Additional observations from a re-analysis of the deposited data

How the results depend on the processing

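Each difference rests on 1 library per group, and the counting intervals leave out variation between cultures and in scaling. Depth limits ANKRD1 most. Of 60 alternative values of the 10 members, 53 stayed inside the counting interval and 7 did not, all for YAP1, TEAD1 and AXL under total-count or FPKM scaling, and no sign changed where the interval had excluded 0. All 89 alternative medians of the lists and of all compared genes stayed between the medians of the interval ends. Those ends belong to single genes and are wide for a median, so this is a loose check. Total-count scaling moved the median from -0.013 to 0.063 over all compared genes and from -0.064 to 0.012 over Hippo kinases and adaptors. Medians of junction regulators, other targets and SRF targets also changed sign, while those of the other lists stayed above 0. Of all 445 alternative medians and counts, 54 counts moved by over 1.5 times, and they are given here.

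With a 1.5-fold rule, 662 compared genes were higher and 638 lower, with 4 and 1 of the 22 targets, 1 and 1 Hippo kinases and adaptors, 1 and 2 junction regulators, 3 and 4 other targets, and 1 and 1 SRF targets. With an interval wholly beyond 2-fold, 60 compared genes were higher and 73 lower, with 0 members and 0 of the 22 targets higher, 1 and 1 other targets, and 1 SRF target higher. A minimum of 100 reads left 62 and 98 genes, 0 members and 1 of the 22 targets higher, and no minimum gave 339 higher genes. FPKM ratios had no interval, so genes were counted by the 2-fold size alone, a looser rule than that used for reads. A pseudocount of 1 gave 83 and 72 genes, 0 members and 0 of the 22 targets, since the pseudocount shrinks scarce genes. A pseudocount of 0.1 gave 1 higher junction regulator.

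Total-count scaling gave 6 intervals above 0 among Hippo kinases and adaptors, 5 above and 2 below among SRF targets, and 1 junction regulator past 2-fold. Over all compared genes, 26.6% of intervals lay above 0 and 16.7% below at this scaling. Upper quartile and DESeq2 scaling each gave 2 above 0 among Hippo kinases and adaptors and 4 below among SRF targets. Of the 13076 compared genes, 3004 intervals lay above 0 and 2517 below with upper quartile scaling, and 2693 and 2748 with DESeq2 scaling. Whole counts only, which removes genes, gave 119 and 95 genes past 2-fold, 1453 intervals above 0 and 1955 below, 1 member below, 5 Hippo genes below, 5 and 5 junction regulators, 1 and 0 coactivators, TEAD and VGLL factors, 4 other targets above with 1 past 2-fold, and 2 SRF targets below with 0 past 2-fold. Keeping whole counts only removed 3 of 10 members, 6 of 20 Hippo genes and 10 of 26 junction regulators. It also removed 4 of 8 coactivators, TEAD and VGLL factors, 6 of 21 other targets and 7 of 15 SRF targets. Without heptamer carriers 109 genes were lower past 2-fold. Intervals then lay below 0 in 4 of 13 Hippo genes (30.8%) and 5 of 17 junction regulators (29.4%). The share was 21.7% of the 9519 compared genes with a 3′ UTR and no heptamer. In the likewise shortened other lists, intervals lay below 0 in 0 coactivators, TEAD and VGLL factors, and 3 SRF targets. The 22 targets without the members had 1 gene past 2-fold, 4 intervals above 0 and 4 below.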

Other observations

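Targets of SRF and its MRTF coactivators were listed because CCN1, CCN2 and ANKRD1 are also known to respond to this actin-sensing pathway. Of 18 genes, 15 were compared, with a median log2 ratio of -0.04, and 3 intervals lay above 0 and 7 below, beside 18.6% and 23.1% of all compared genes. With total-count scaling 5 lay above and 2 below. The balance over all compared genes turned likewise, to 26.6% above and 16.7% below. SRF itself was level, with 945 and 957 reads. TPM4, a tropomyosin, had 1239 and 4197 reads, a 3.23-fold higher level (log2 ratio 1.69, 1.60 to 1.78), with fractional counts. TPM2, another tropomyosin, had 1486 and 2134 reads and a log2 ratio of 0.45. FHL1, a LIM-domain protein of muscle, had 1361 and 751 reads and a log2 ratio of -0.93 (-1.06 to -0.80). ACTG1, which encodes cytoplasmic gamma-actin, was at -0.47. FHL1 and ACTG1 carry a heptamer described above and had fractional counts, and its part in their levels was not tested.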
